A study of Mus musculus with 9 samples.

Results

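The interferon-stimulated genes described here are 36 mouse genes that interferons are known to induce, listed by symbol. The files held 35 of them, Mx2 was not analysed here, and 35 of 35 passed the filter, which asked for 3 or more of the 9 libraries with a value of 10 or higher, as did 15411 of 21853 genes in all. Oas2 and Ifi44 passed it through the WT-Control libraries alone, so counts over the other 33 stand beside those over 35. Oas1a passed it through WT-Control and HD-WNT5B libraries, with no HD-Control library at 10, and stays in both counts. The libraries, made from polyadenylated brain RNA, fall into 3 groups of 3. The HD-WNT5B group was N171-82Q mice, a Huntington's disease (HD) model that expresses an N-terminal mutant huntingtin fragment, given pAAV-GFAP(pro)-WNT5B-P2A-mCherry, in which the GFAP promoter, used to target astrocytes, drives WNT5B with mCherry. The HD-Control group was N171-82Q mice given pAAV-GFAP(pro)-Control-mCherry, and the WT-Control group was wild-type mice given that same control virus, so every group had received an AAV with mCherry. According to the text of the series the virus went into the striatum, while the labels name the tissue as brain and give no region, age or sex. The comparisons ask how the genes differ between HD and wild-type brain under the control virus and between HD brains given the WNT5B or the control virus.

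Interferons are cytokines that cells release when nucleic acid sensors detect viral or misplaced RNA and DNA. Type I interferons bind the receptor of Ifnar1 and Ifnar2 and act through Jak1, Tyk2 and a complex with Stat2 and Irf9, which binds the interferon-stimulated response element of target promoters, and interferon gamma acts at gamma-activated sites. The induced genes encode sensors, transcription factors, proteins that block viral replication and GTPases that attack intracellular pathogens, and in brain both glia and endothelium respond.

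Each value below is a normalized read number, decimal as deposited, scaled by 1 factor per library and not divided by gene length. Low values fell on multiples of 1 step, the value of 1 read, which was 1.61 to 2.14 in HD-WNT5B, 0.616 to 0.797 in HD-Control and 0.704 to 0.808 in WT-Control libraries. Dividing by that step gave 37.3 to 52.1 megareads per HD-WNT5B library, 69.8 to 90.6 megareads per HD-Control library and 67.8 to 77.8 megareads per WT-Control library. The HD-WNT5B libraries stood apart from the others. Their summed values were 79883900 to 83750800, against 55628000 to 55801100 in HD-Control and 54567300 to 54739700 in WT-Control libraries, and their median SD of log2 values over 13081 genes was 0.233, against 0.0333 in HD-Control and 0.0393 in WT-Control. Of 12340 genes with at least 100 in each of the 6 control-virus libraries, 313 (2.54%), the widely expressed Sept2, Myl12b and Hgs among them, were at or near 0 in at least 1 HD-WNT5B library, and 22 were so in all 3. A 0 there is therefore not read as absence or as a fall. The text gives no fold change for a gene from a fit that holds an HD-WNT5B library at 0. Counts, medians and figures do include such genes. The labels do not say whether these 3 libraries were made or counted differently, so in rises and falls alike virus and processing cannot be told apart. Markers of striatal neurons were present in every library, with summed values of 338954 to 354092 in HD-WNT5B, 369626 to 374058 in HD-Control and 364682 to 367800 in WT-Control libraries.

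In HD-Control brains the interferon-stimulated genes were mostly below their WT-Control levels. Of 35 tested, 26 fell, 3 rose and 6 did not pass the test, which was limma's moderated test on log2(value + 3) over the 6 libraries compared, at a Benjamini-Hochberg adjusted p under 0.05 over all genes tested. The background was high, because 40.2% of the 15411 genes tested were called lower and 43.5% higher in this comparison. Against that background 74.3% of the members were called lower and 8.57% higher, and their median log2 fold change was -0.70, beside 0.02 over all genes tested. Over the 33 members without Oas2 and Ifi44 the counts were 24 lower and 3 higher, with a median of -0.59. The 3 that rose were Irgm1, Xaf1 and Rsad2. With 1 spread shared by all 9 libraries, which adds the scatter of the HD-WNT5B group to every gene, 10 members fell and 1 rose, beside 3183 lower and 3774 higher genes of all tested. The labels do not say that libraries came from separate animals, so the p-values measure the spread between these libraries.

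**Figure D1:**
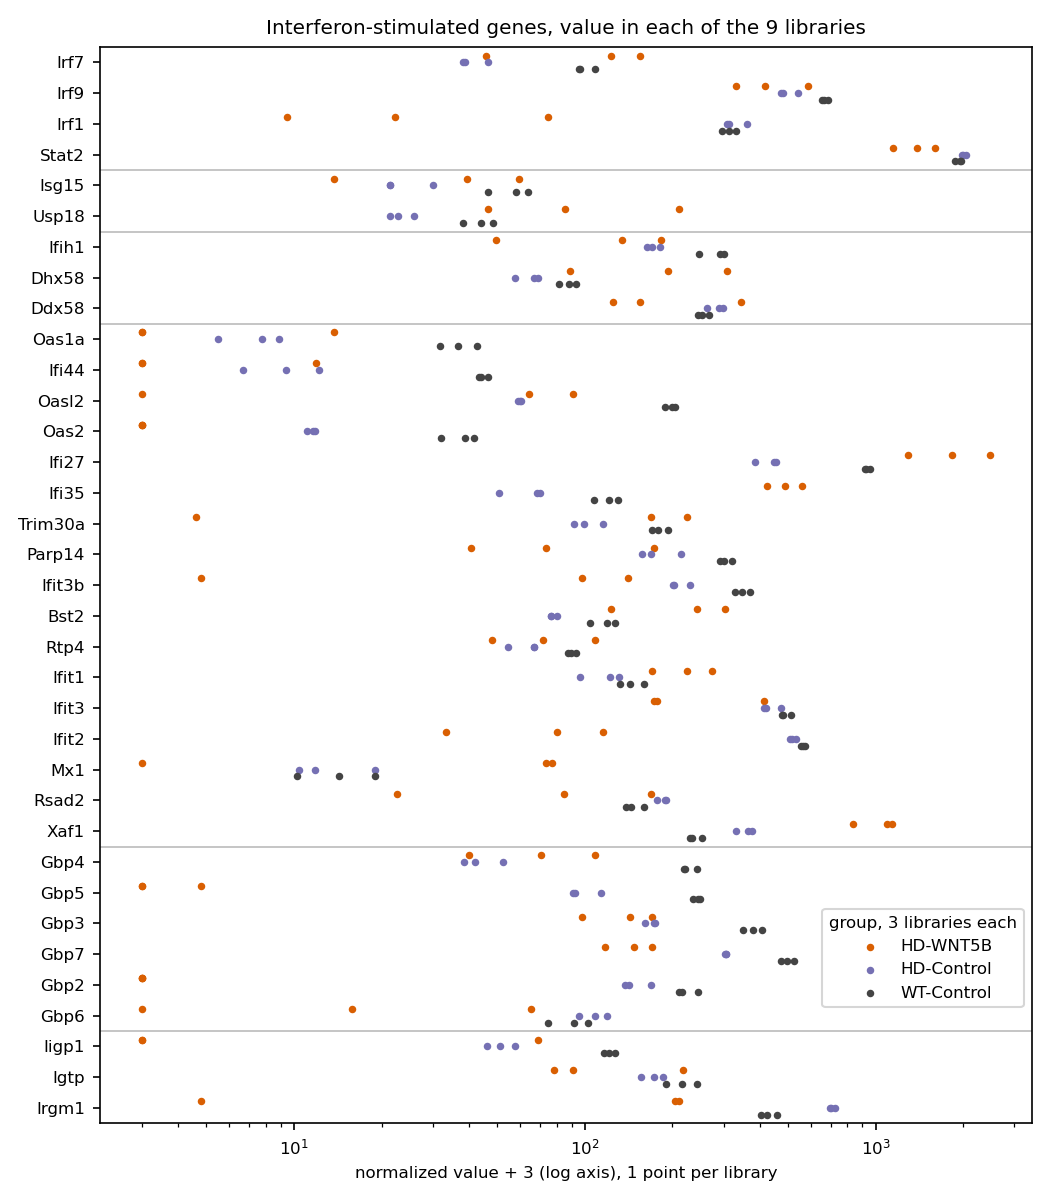
Normalized value plus 3 (log axis) of each of 35 interferon-stimulated genes in each of 9 libraries, 1 point per library, by role from transcription factors at the top to immunity-related GTPases at the bottom, with HD-WNT5B above HD-Control and WT-Control in each line. The points of HD-Control and of WT-Control lie close together and apart from each other for most genes, while the HD-WNT5B points of a gene often spread widely, as for Irgm1 at 1.79, 207 and 202.

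In HD-WNT5B brains the members did not move together relative to HD-Control. Ifi27, Ifi35, Xaf1, Usp18, Bst2, Dhx58 and Ifit1 rose, Irf1, Stat2, Ifit2 and Gbp7 fell, and 21 did not pass the test. The lower calls, 7 in all, also count Gbp2 and Oas2, listed at 0 in all 3 HD-WNT5B libraries, and Gbp5, with 1 read in them, where abundant genes are listed at 0 too. Called lower were 20% of the members and 37.9% of all genes tested, and called higher were 20% of the members and 33.9% of all genes, so both shares of members lay under the background. The members also have lower values and scatter more between HD-WNT5B libraries than most genes. Whether that accounts for their smaller shares was not tested. The median log2 fold change of the members was -0.59, beside -0.23 over all genes, and without Oas2 and Ifi44 there were 7 higher and 6 lower of 33. The medians include genes at 0 in at least 1 HD-WNT5B library, 9 of 35 members and 1997 of 15411 genes, so their size is uncertain. With all libraries brought to equal summed values, 3 members were higher and 15 lower, beside 3755 higher and 7872 lower of all genes against 5226 and 5848 at the deposited scale, and the medians were -1.14 for members and -0.76 for all genes. Leaving out any 1 of the HD-Control libraries left 3 members higher, beside 4719 to 4727 of all genes. Leaving out HD-WNT5B replicate 1 or HD-WNT5B replicate 2 gave 11 members lower, beside 6195 and 6158 of all genes. Ifi27, Ifi35 and Xaf1 were called higher under each of these settings.

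**Figure D2:**
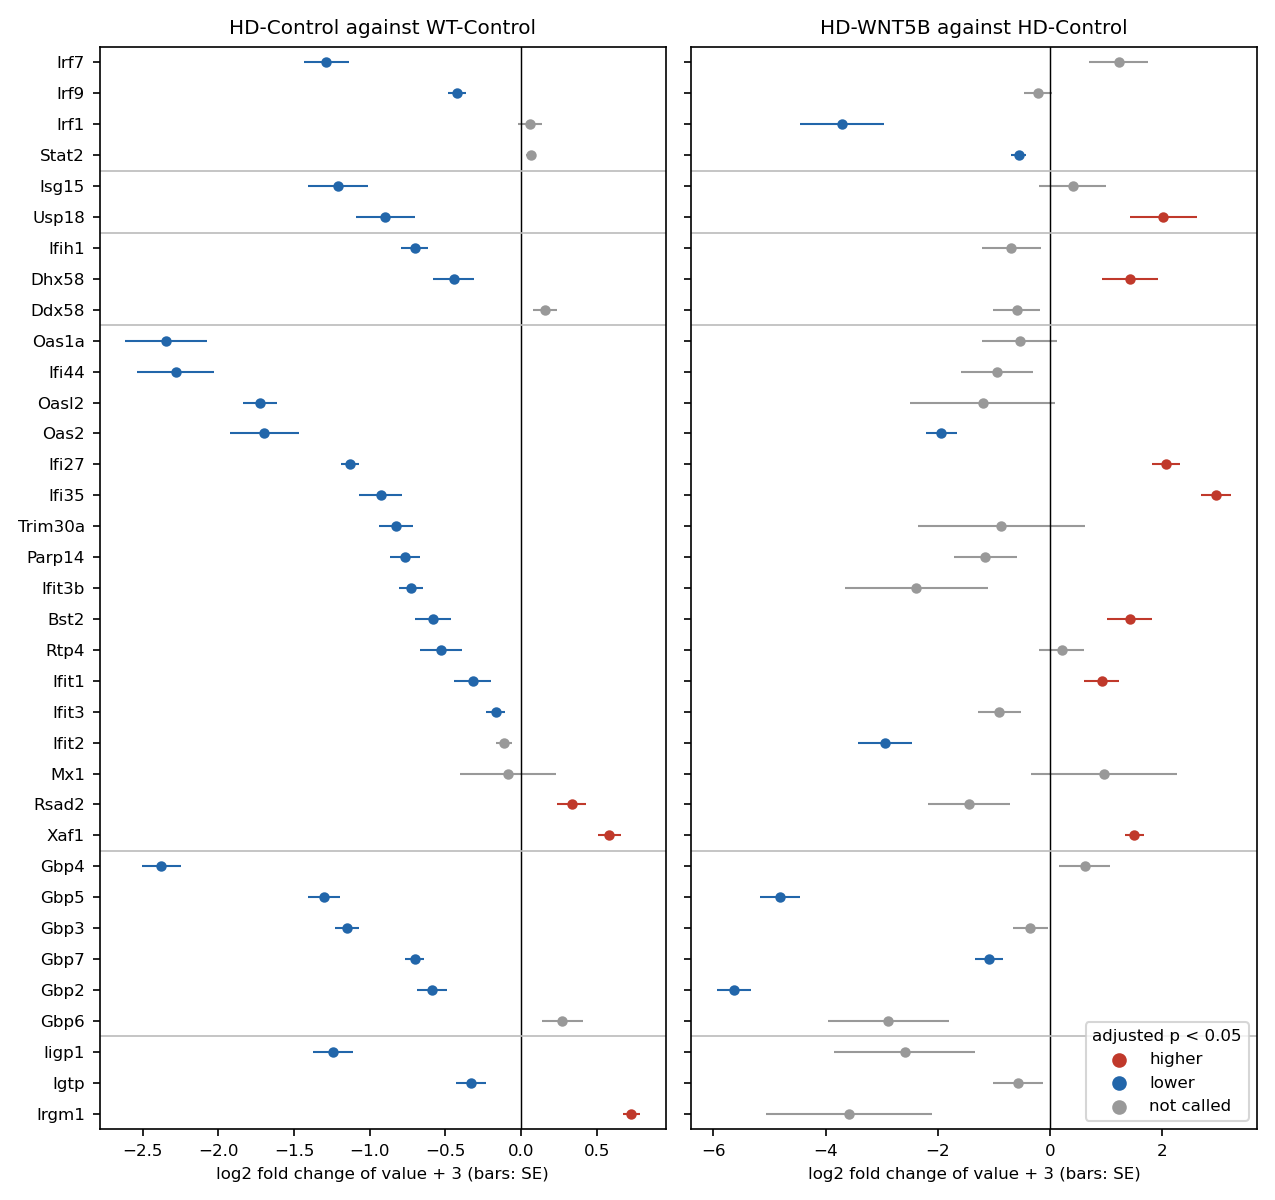
Log2 fold change of value plus 3 with its standard error (SE) for 35 interferon-stimulated genes, HD-Control against WT-Control on the left and HD-WNT5B against HD-Control on the right, coloured by the call at adjusted p under 0.05. On the left 26 genes lie below 0 and are called, with short bars. On the right 7 are called on either side and bars are long. The right-hand positions of 9 members at 0 in at least 1 HD-WNT5B library depend on the constant added and are not read as falls. Among them Gbp2, Gbp5 and Oas2 are called.

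Scatter within the HD-WNT5B group was wide. Of the 35 members, 13 (37.1%) ranged 4-fold or more between the 3 HD-WNT5B libraries on the value + 3 scale, beside 14.2% of all genes tested, and 0 did so in the HD-Control or the WT-Control group. At 0 in at least 1 HD-WNT5B library were 9 members. The members are also low genes, with a median of their mean values of 105 in HD-WNT5B, 114 in HD-Control and 213 in WT-Control, against 1101 to 1172 over all genes in the 3 groups, and low genes rest on fewer reads.

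**Figure D3:**
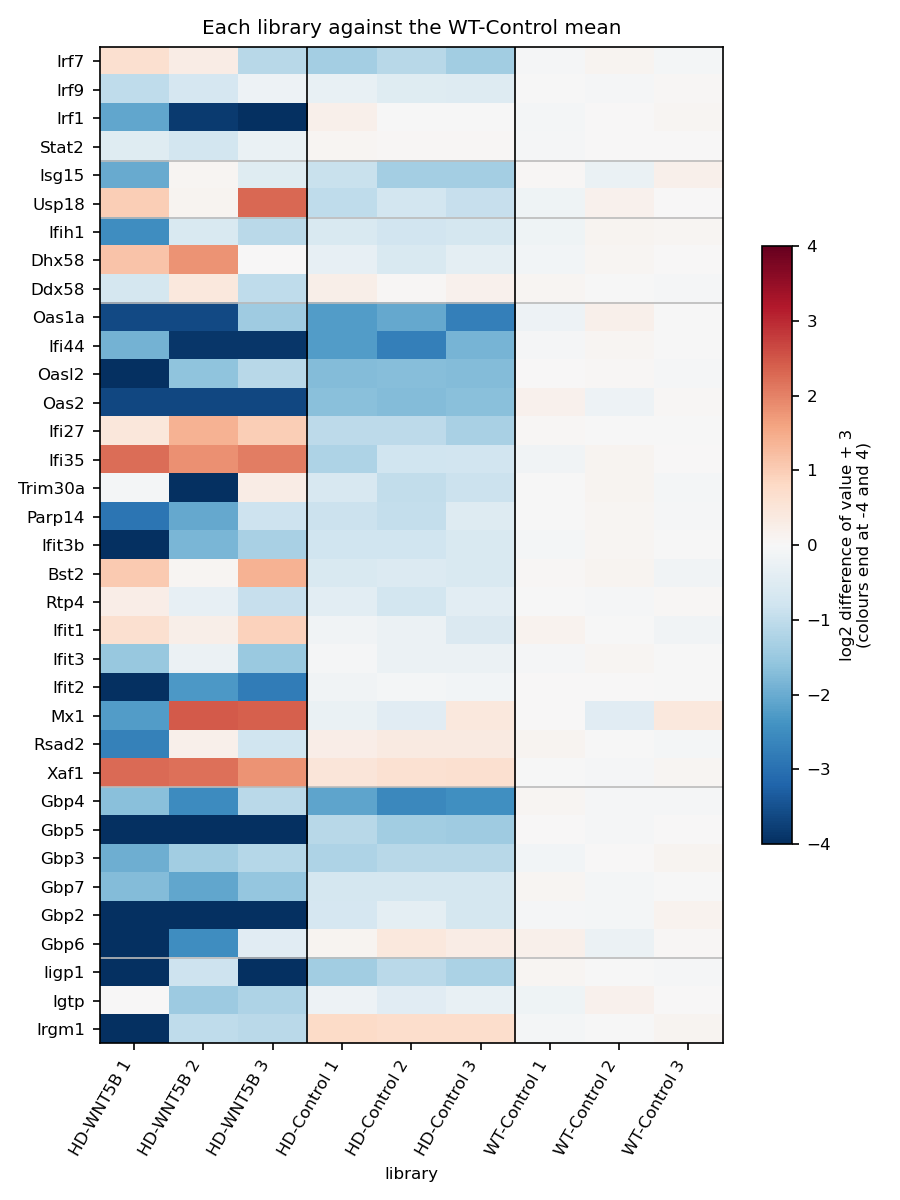
Log2 difference of each library's value plus 3 from the WT-Control mean, for 35 interferon-stimulated genes in lines and 9 libraries in columns, HD-WNT5B at the left, HD-Control in the middle and WT-Control at the right (colours end at -4 and 4). The HD-Control columns are evenly blue for most genes, whereas the HD-WNT5B columns mix red and dark blue and differ among the 3 libraries for Trim30a, Mx1, Irgm1 and Oasl2.

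Among the transcription factors, Irf7, which amplifies type I interferon production, had values of 152, 120.5 and 42.9 in HD-WNT5B, 35.9, 43.5 and 35.1 in HD-Control and 92.9, 106 and 92.7 in WT-Control libraries. Each HD-Control library lay below each WT-Control library, and the log2 fold change was -1.29 (SE 0.15, adjusted p = 8.3e-08). In HD-WNT5B replicate 1 and replicate 2 lay above every WT-Control library and replicate 3 at the level of HD-Control, and their difference from HD-Control of 1.22 (SE 0.52) did not pass (adjusted p = 0.0763). Without replicate 3 it was 1.76 (adjusted p = 0.00225). Irf9, the DNA-binding subunit that joins Stat2, had 327, 413 and 583 in HD-WNT5B, 539.7, 478 and 469 in HD-Control and 662, 648 and 685 in WT-Control libraries. The gene fell in HD-Control (log2 -0.42, SE 0.06, adjusted p = 1.3e-06), while HD-WNT5B overlapped HD-Control and differed from it by -0.20 (SE 0.25, adjusted p = 0.488).

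Stat2, the subunit that carries the activating domain of that complex, had 1383, 1148 and 1595 in HD-WNT5B, 2046, 1984 and 1992 in HD-Control and 1866, 1956 and 1948 in WT-Control libraries. HD-WNT5B lay below both other groups without overlap and was lower than HD-Control by a log2 of -0.56 (SE 0.13, adjusted p = 0.00806). HD-Control differed from WT-Control by 0.06, which did not pass (SE 0.03, adjusted p = 0.069). Irf1, which interferon gamma induces, had 71.5, 19.3 and 6.43 in HD-WNT5B, 357, 309 and 305 in HD-Control and 293, 311 and 327 in WT-Control libraries. HD-Control and WT-Control overlapped (log2 0.06, SE 0.08, adjusted p = 0.486). Every HD-WNT5B library was far below both, at 3 to 40 reads, with a log2 fold change of -3.70 against HD-Control (SE 0.75, adjusted p = 0.00436). The promoter window of Irf1 from RefSeq (build GRCm38.p6, chr11:53769764-53770063, plus strand, 250 bases before the start and 50 after it) is shown because it holds a gamma-activated site, TTCNNNGAA (capitals), at base -90 from the start and no response element core, as do windows of Ifi35 and Ifit2.

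Irf1: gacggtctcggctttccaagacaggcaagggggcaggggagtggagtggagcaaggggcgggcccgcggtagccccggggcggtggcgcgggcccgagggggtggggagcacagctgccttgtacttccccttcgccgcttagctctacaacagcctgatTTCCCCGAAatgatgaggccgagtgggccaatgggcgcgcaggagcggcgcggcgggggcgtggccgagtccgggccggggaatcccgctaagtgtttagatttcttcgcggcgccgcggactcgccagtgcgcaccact

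Isg15, the ubiquitin-like protein that is joined to other proteins, had 10.7, 56.2 and 36.5 in HD-WNT5B, 27.1, 18.4 and 18.5 in HD-Control and 54.9, 43.6 and 60.6 in WT-Control libraries. HD-Control lay below WT-Control without overlap (log2 -1.21, SE 0.20, adjusted p = 1.3e-05), and HD-WNT5B spanned both (0.40 against HD-Control, SE 0.60, adjusted p = 0.571). Without HD-WNT5B replicate 1 the difference from HD-Control was 1.01 (adjusted p = 0.0421). Usp18, the protease that removes Isg15 and restrains the type I receptor, had 82.3, 43.4 and 208 in HD-WNT5B, 18.3, 22.9 and 19.7 in HD-Control and 35.2, 45.2 and 40.9 in WT-Control libraries. HD-Control was the lowest group without overlap, with a log2 fold change of -0.90 against WT-Control (SE 0.19, adjusted p = 0.000284). HD-WNT5B was 2.02 above HD-Control (SE 0.59, adjusted p = 0.0211), a call that did not pass without any 1 of the HD-Control libraries (adjusted p = 0.0575 to 0.0708) or with equal totals (adjusted p = 0.0577).

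The Isg15 window (GRCm38.p6, chr4:156200769-156201068, minus strand, shown as transcribed) is shown because it holds the most matches among the members, 3 overlapping ones, of the response element core, GAAA, any 2 bases and GAAA on either strand, whose first bases are at -78, -72 and -66 (capitals).

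Isg15: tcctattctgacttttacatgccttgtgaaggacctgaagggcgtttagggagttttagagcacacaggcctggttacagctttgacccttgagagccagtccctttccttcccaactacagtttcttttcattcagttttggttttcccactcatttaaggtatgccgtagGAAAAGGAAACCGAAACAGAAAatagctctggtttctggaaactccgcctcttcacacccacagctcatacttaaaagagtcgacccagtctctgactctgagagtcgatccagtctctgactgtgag

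Of the 36 members, 25 had at least 1 RefSeq promoter window, 30 windows in all. The core stood in 18 of these windows and 17 of the 25 genes, beside 1131 of 32851 mouse promoter windows (3.44%). TTCNNNGAA stood in 8 of the 25 genes, beside 2726 windows (8.30%). A match describes letters in the window and is not a measured binding site.

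The cytoplasmic RNA sensors differed from one another. Ifih1, which encodes MDA5 and detects long double-stranded RNA, had 46.5, 180 and 131 in HD-WNT5B, 179, 161 and 167 in HD-Control and 245, 299 and 290 in WT-Control libraries. HD-Control was lower than WT-Control (log2 -0.70, SE 0.09, adjusted p = 5.2e-07), and HD-WNT5B overlapped HD-Control with 1 library well below it (-0.69, SE 0.52, adjusted p = 0.275). Ddx58, which encodes RIG-I, the sensor of RNA with triphosphate ends, had 152, 341 and 122 in HD-WNT5B, 297, 260 and 287 in HD-Control and 264, 250 and 242 in WT-Control libraries, and all pairs of groups overlapped. Its log2 differences did not pass, at 0.16 for HD-Control against WT-Control (adjusted p = 0.0701) and -0.59 for HD-WNT5B against HD-Control (adjusted p = 0.241; without HD-WNT5B replicate 2 it was -1.03, adjusted p = 0.00489). Dhx58, which encodes LGP2, a regulator of both sensors, had 189.6, 305 and 85.8 in HD-WNT5B, 66.2, 54.6 and 64 in HD-Control and 78.8, 90.4 and 85.4 in WT-Control libraries. HD-Control was lowest without overlap (-0.45, SE 0.14, adjusted p = 0.00488). The rise of 1.43 in HD-WNT5B over HD-Control (SE 0.50, adjusted p = 0.0394) did not pass without any 1 of 5 libraries, every one but HD-WNT5B replicate 3, nor with equal totals (adjusted p = 0.065 to 0.134).

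Of 17 antiviral effectors tested, 13 fell and 2 rose in HD-Control against WT-Control, and 5 were called higher and 2 lower in HD-WNT5B against HD-Control. As shares these are 76.5% lower and 11.8% higher in HD-Control, beside 40.2% and 43.5% of all genes, and 11.8% lower and 29.4% higher in HD-WNT5B, under the 37.9% and 33.9% of all genes. The 13 count Oas2, Ifi44 and Oas1a, and the 2 lower in HD-WNT5B count Oas2. The oligoadenylate synthetase family, which makes the messenger that activates RNase L, was low. Oasl2 had 0, 61 and 87.9 in HD-WNT5B, 55.8, 57.5 and 56.6 in HD-Control and 196, 201 and 186 in WT-Control libraries. The HD-Control libraries lay close together and at 0.292 times the WT-Control mean (log2 -1.72, SE 0.11, adjusted p = 9.4e-12), while 1 HD-WNT5B library was at 0 and the other two were above HD-Control (adjusted p = 0.434). Oas2 was listed at 0 in all 3 HD-WNT5B libraries, with 8.77, 8.11 and 8.62 in HD-Control, which is 11 to 14 reads, and 38.7, 29.1 and 35.8 in WT-Control libraries. Oas2 passed the filter through WT-Control alone, so its test against WT-Control is not independent of the filter and is not given, and its call against HD-Control rests on 0 reads and was lost with a weight per group (adjusted p = 0.121). Oas1a had 0, 0 and 10.7 in HD-WNT5B, 4.78, 5.9 and 2.46 in HD-Control and 28.9, 39.6 and 33.6 in WT-Control libraries. HD-Control, at 4 to 8 reads, lay below WT-Control without overlap. Apart from 1 HD-WNT5B library, Oas1a passed the filter through WT-Control, so its test against WT-Control is not independent of the filter and is not given. Ifi44 had 8.94, 0 and 0 in HD-WNT5B, 6.38, 3.69 and 9.23 in HD-Control and 40.1, 43.6 and 40.9 in WT-Control libraries, with HD-Control below WT-Control. It also passed the filter through WT-Control alone, and no test against that group is given.

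The Ifit genes, whose proteins bind viral RNA, lie side by side on chromosome 19, and their values differed although they are neighbours. Ifit1, which recognises viral caps, had 222, 167 and 270.2 in HD-WNT5B, 128, 119 and 93 in HD-Control and 156, 139.7 and 129 in WT-Control libraries. HD-WNT5B was the highest group and HD-Control the lowest, without overlap. The log2 differences were -0.32 for HD-Control against WT-Control (SE 0.12, adjusted p = 0.0221) and 0.92 for HD-WNT5B against HD-Control (SE 0.30, adjusted p = 0.0329). The difference from WT-Control did not pass without HD-Control replicate 3 or WT-Control replicate 1 (adjusted p = 0.163 and 0.106), and the rise in HD-WNT5B did not without any 1 HD-Control library (adjusted p = 0.0772 to 0.131) or with equal totals (adjusted p = 0.307). Ifit2 had 30.4, 112 and 77.2 in HD-WNT5B, 506, 530.2 and 513 in HD-Control and 559.5, 567 and 552 in WT-Control libraries. The HD-WNT5B libraries were far below both control-virus groups (log2 -2.94 against HD-Control, SE 0.48, adjusted p = 0.00164). HD-Control differed from WT-Control by -0.11 (SE 0.05, adjusted p = 0.0502), and 3 other scalings put it past the threshold (adjusted p = 0.00466 to 0.0183).

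Ifit3 had 169.9, 409.6 and 174 in HD-WNT5B, 471, 417 and 411 in HD-Control and 472, 509 and 479 in WT-Control libraries. Its fall in HD-Control was small (-0.17, SE 0.06, adjusted p = 0.0201) and did not pass without HD-Control replicate 2, HD-Control replicate 3 or WT-Control replicate 2 (adjusted p = 0.0781 to 0.094). HD-WNT5B lay below HD-Control by a difference that did not pass (-0.90, SE 0.38, adjusted p = 0.0733), and without HD-WNT5B replicate 2, the highest of the 3, it was -1.32 (adjusted p = 0.000796). Ifit3b had 1.79, 94.8 and 137 in HD-WNT5B, 199, 198 and 227 in HD-Control and 326, 367 and 344 in WT-Control libraries. Its log2 fold change in HD-Control was -0.73 (SE 0.08, adjusted p = 5.6e-08), and HD-WNT5B replicate 1 held 1 read of it. Without that library the HD-WNT5B difference from HD-Control was -0.85 (adjusted p = 0.0251), against -2.38 (SE 1.27, adjusted p = 0.137) with it. Of the 50-base stretches of Ifit3 transcripts, 51.2% also occur in Ifit3b, and 45.0% of those of Ifit3b occur in other genes, so how reads were shared between this pair is uncertain.

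The windows of the pair (GRCm38.p6, both plus strand, chr19:34583279-34583578 for Ifit3 and chr19:34607707-34608006 for Ifit3b) are shown because 259 of 260 bases aligned outside gaps are identical. Gaps, where either window lacks bases of the other, are not counted. Both hold the same 2 copies of the response element core on the opposite strand (capitals), at -156 and -122 in Ifit3 and at -188 and -154 in Ifit3b.

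Ifit3: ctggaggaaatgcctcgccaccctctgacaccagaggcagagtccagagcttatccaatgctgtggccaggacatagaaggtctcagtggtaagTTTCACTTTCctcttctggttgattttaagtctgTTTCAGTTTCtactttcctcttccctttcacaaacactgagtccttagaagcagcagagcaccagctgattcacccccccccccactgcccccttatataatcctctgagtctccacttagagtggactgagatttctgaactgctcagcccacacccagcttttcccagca
Ifit3b: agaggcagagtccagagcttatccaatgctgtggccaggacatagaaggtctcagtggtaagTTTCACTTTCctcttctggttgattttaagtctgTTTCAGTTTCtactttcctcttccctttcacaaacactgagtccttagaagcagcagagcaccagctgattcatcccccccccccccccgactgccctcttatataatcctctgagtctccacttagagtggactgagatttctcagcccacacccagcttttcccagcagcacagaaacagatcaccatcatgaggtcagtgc

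Ifi27, a small interferon-induced membrane protein, had 1291, 2462 and 1831 in HD-WNT5B, 446, 452 and 380.5 in HD-Control and 954, 927 and 917 in WT-Control libraries. The groups were in 3 separate ranges. HD-Control had 0.457 times the WT-Control mean (log2 -1.13, SE 0.06, adjusted p = 6.0e-13) and HD-WNT5B 4.37 times the HD-Control mean (2.07, SE 0.25, adjusted p = 0.000349). Ifi35, which pairs with Nmi, had 554, 419 and 485 in HD-WNT5B, 47.8, 65.6 and 67.1 in HD-Control and 104, 127 and 118 in WT-Control libraries. Again the groups did not overlap, with a log2 fold change of -0.93 in HD-Control (SE 0.14, adjusted p = 5.7e-06) and of 2.96 in HD-WNT5B against HD-Control (SE 0.27, adjusted p = 0.000105). Exons of Ifi35 share 16.8% of their bases with the gene model Gm11626, and the library kit does not keep the strand, so a part of its reads may belong there. Bst2, or tetherin, which holds budding virus at the cell surface, had 239.7, 120.5 and 300.2 in HD-WNT5B, 73.3, 77.4 and 73.3 in HD-Control and 116, 124 and 101 in WT-Control libraries. It fell in HD-Control (-0.58, SE 0.12, adjusted p = 0.000184). Its rise in HD-WNT5B over HD-Control of 1.43 (SE 0.40, adjusted p = 0.0178) did not pass without any 1 HD-Control library (adjusted p = 0.0605 to 0.0649) or with equal totals (0.89, adjusted p = 0.0908).

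Xaf1, a pro-apoptotic antagonist of XIAP, had 1134, 1092 and 832 in HD-WNT5B, 329, 362 and 372 in HD-Control and 232, 226 and 249.6 in WT-Control libraries. It rose in HD-Control (0.58, SE 0.08, adjusted p = 5.85e-07) and was higher again in HD-WNT5B than in HD-Control (1.51, SE 0.18, adjusted p = 0.000318), with 3 separate ranges. Rsad2, or viperin, which makes a chain-terminating nucleotide, had 19.7, 165 and 81.5 in HD-WNT5B, 175, 185 and 188 in HD-Control and 156, 141 and 136 in WT-Control libraries. It rose in HD-Control by a small amount (0.33, SE 0.09, adjusted p = 0.00306), and each HD-WNT5B library was below each HD-Control library (-1.43, SE 0.73, adjusted p = 0.122; without HD-WNT5B replicate 2 it was -2.08, adjusted p = 0.0264). Mx1, a dynamin-like GTPase that blocks influenza virus in mice, had 0, 73.9 and 70.8 in HD-WNT5B, 8.77, 7.37 and 16 in HD-Control and 11.3, 7.27 and 16.1 in WT-Control libraries. HD-Control and WT-Control overlapped (adjusted p = 0.799), and HD-WNT5B replicate 2 and replicate 3 were above every other library while replicate 1 was at 0. Without replicate 1 the difference from HD-Control was 2.51 (adjusted p = 0.00225), and with it the test did not pass (adjusted p = 0.533).

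Trim30a, which limits Toll-like receptor signalling in mice, had 166, 1.61 and 221 in HD-WNT5B, 112, 88.5 and 96.7 in HD-Control and 175, 189.8 and 168 in WT-Control libraries. HD-Control was lower than WT-Control (-0.83, SE 0.11, adjusted p = 8.4e-07). In HD-WNT5B 2 libraries were above every HD-Control library and replicate 2 held 1 read, so the difference of -0.86 from HD-Control (SE 1.48, adjusted p = 0.622) turned to 0.94 without that library (adjusted p = 0.0162). Parp14, a mono-ADP-ribosyltransferase, had 37.6, 70.7 and 169 in HD-WNT5B, 166, 155 and 211 in HD-Control and 298, 317 and 289.7 in WT-Control libraries, and fell in HD-Control (-0.77, SE 0.10, adjusted p = 5.2e-07). Its HD-WNT5B libraries overlapped HD-Control at the top (-1.16, SE 0.56, adjusted p = 0.108; without replicate 3 it was -1.71, adjusted p = 0.0081). Rtp4, a receptor transport protein, had 105.5, 69.1 and 45 in HD-WNT5B, 63.8, 51.6 and 64 in HD-Control and 86.6, 84.8 and 90.5 in WT-Control libraries, and fell in HD-Control (-0.53, SE 0.14, adjusted p = 0.00132), with HD-WNT5B spread over both ranges.

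Guanylate-binding proteins, large GTPases that assemble on pathogen vacuoles and on bacteria, fell in HD-Control for 5 of 6 (83.3%, beside 40.2% of all genes). Against HD-Control 3 of 6 were called lower in HD-WNT5B (50%, beside 37.9% of all genes) and 0 higher, and of these Gbp2 and Gbp5 were at 0 or 1 read. Gbp2, Gbp3, Gbp5 and Gbp7 are neighbours on chromosome 3 and Gbp4 and Gbp6 lie on chromosome 5. Gbp4 had 68, 36.9 and 105 in HD-WNT5B, 49.4, 35.4 and 38.8 in HD-Control and 239, 219 and 216 in WT-Control libraries. HD-Control had 0.183 times the WT-Control mean (log2 -2.38, SE 0.13, adjusted p = 8.35e-13), and HD-WNT5B overlapped HD-Control (0.62, SE 0.46, adjusted p = 0.261; without HD-WNT5B replicate 2, adjusted p = 0.0334). Gbp3 had 94.8, 139.7 and 167 in HD-WNT5B, 159, 172 and 170.5 in HD-Control and 346, 377 and 402 in WT-Control libraries. Its HD-WNT5B and HD-Control ranges overlapped, both under WT-Control, with a log2 fold change of -1.15 in HD-Control (SE 0.08, adjusted p = 4.9e-11). Gbp7 had 145, 114 and 167 in HD-WNT5B, 302, 302 and 302 in HD-Control and 522, 469 and 491 in WT-Control libraries. The groups formed 3 separate ranges, at -0.70 for HD-Control against WT-Control (SE 0.06, adjusted p = 2.6e-09) and -1.09 for HD-WNT5B against HD-Control (SE 0.25, adjusted p = 0.00753). Gbp7 shares 11.3% of its exon bases with the gene model Gm43802.

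Gbp2 was listed at 0 in all 3 HD-WNT5B libraries, against 139, 166 and 134 in HD-Control and 213, 208 and 242 in WT-Control libraries. Gbp5, which promotes inflammasome assembly, had 1.79, 0 and 0 in HD-WNT5B, that is 1 read in 1 library, against 111, 89.2 and 88 in HD-Control and 242, 233 and 245 in WT-Control libraries. Both count among the lower calls in HD-WNT5B, but abundant genes are also at 0 in those libraries, so no fold change or p is given. Both fell in HD-Control against WT-Control, Gbp2 with a log2 difference of -0.59 (SE 0.10, adjusted p = 1.9e-05) and Gbp5 with -1.30 (SE 0.10, adjusted p = 4.1e-10). Gbp6 had 0, 12.8 and 62.2 in HD-WNT5B, 92.5, 117 and 105 in HD-Control and 99.2, 71.9 and 89 in WT-Control libraries. HD-Control and WT-Control overlapped (adjusted p = 0.0713), and the HD-WNT5B values were below both without overlap, with replicate 1 at 0 (adjusted p = 0.0502 against HD-Control). Without HD-WNT5B replicate 3 the test would rest on 0 and 12.8, so it is not given. Of the 50-base stretches of Gbp6, 70.7% occur in other genes, so its values are uncertain.

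The Gbp2 window (GRCm38.p6, chr3:142620413-142620712, plus strand) is shown because no read of this gene was listed in HD-WNT5B, and it holds 1 response element core at -59 on the opposite strand (capitals).

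Gbp2: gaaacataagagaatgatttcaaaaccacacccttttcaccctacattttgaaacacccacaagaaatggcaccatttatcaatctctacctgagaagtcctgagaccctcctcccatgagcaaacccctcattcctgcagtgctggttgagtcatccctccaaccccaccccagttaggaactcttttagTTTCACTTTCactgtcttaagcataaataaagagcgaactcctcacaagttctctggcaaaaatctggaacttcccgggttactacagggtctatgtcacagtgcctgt

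The immunity-related GTPases moved apart. Irgm1, a regulator of this family and of autophagy, had 1.79, 207 and 202 in HD-WNT5B, 721.5, 696 and 700.0 in HD-Control and 400.5, 422 and 455 in WT-Control libraries. HD-Control was the highest group without overlap, at 1.66 times the WT-Control mean (log2 0.73, SE 0.06, adjusted p = 3.0e-10). Every HD-WNT5B library was below both other groups, with 1 read in replicate 1. The log2 difference of -3.59 from HD-Control (SE 1.48) did not pass (adjusted p = 0.0677), and without replicate 1 it was -1.77 (adjusted p = 0.000124). Igtp, also a regulator, had 215, 75.5 and 87.9 in HD-WNT5B, 183, 153 and 170.5 in HD-Control and 188, 239.8 and 212 in WT-Control libraries, and fell in HD-Control (log2 -0.33, SE 0.10, adjusted p = 0.00523). Its HD-WNT5B libraries overlapped both groups, and without replicate 1 the difference from HD-Control was -1.02 (adjusted p = 0.00813). Iigp1, an effector that coats parasite vacuoles, had 0, 65.9 and 0 in HD-WNT5B, 43.1, 54.6 and 48 in HD-Control and 124, 118 and 114 in WT-Control libraries. It fell in HD-Control (-1.24, SE 0.13, adjusted p = 3.5e-08), and HD-WNT5B overlapped HD-Control through replicate 2 (adjusted p = 0.107). Without replicate 2 only libraries at 0 remain in HD-WNT5B, so no test is given for that case.

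The Irgm1 window (GRCm38.p6, chr11:48871371-48871670, minus strand, shown as transcribed) is given because this member rose in HD-Control while most members fell, and it carries the same core as members that fell, as 2 overlapping matches at -30 and -24 (capitals).

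Irgm1: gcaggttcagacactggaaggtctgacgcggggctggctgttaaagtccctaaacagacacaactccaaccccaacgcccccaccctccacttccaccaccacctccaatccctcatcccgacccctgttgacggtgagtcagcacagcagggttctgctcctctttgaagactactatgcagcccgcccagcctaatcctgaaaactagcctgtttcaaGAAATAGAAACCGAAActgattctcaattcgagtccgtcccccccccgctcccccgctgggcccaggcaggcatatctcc

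Against WT-Control, HD-WNT5B had 15 members lower, 3 higher and 17 not called, where 38.6% of all genes were called lower and 34% higher. The share of members called lower was 42.9%, near that background, and the share called higher was 8.57%. The median of the members was -1.39 on the log2 scale, beside -0.25 over all genes. These medians include genes at 0 in at least 1 HD-WNT5B library, 9 of 35 members and 1997 of 15411 genes, so their size is uncertain. Without Oas2 and Ifi44, 13 of 33 were lower and 3 higher, and scaled to equal totals 20 of 35 were lower and 2 higher, beside 8042 lower and 3767 higher of all genes against 5950 and 5238 at the deposited scale. Xaf1 (2.09, SE 0.19, adjusted p = 9.2e-05), Ifi35 (2.03, SE 0.24, adjusted p = 0.000315) and Ifi27 (0.95, SE 0.23, adjusted p = 0.00971) were the members that rose. With equal totals Ifi27 no longer passed (0.37, adjusted p = 0.177). Ifit2 fell (log2 -3.06, SE 0.48, adjusted p = 0.00136), as did Irf1 (-3.65, SE 0.75, adjusted p = 0.00461), Gbp7 (-1.79, SE 0.24, adjusted p = 0.0006), Gbp4 (-1.75, SE 0.42, adjusted p = 0.00927) and Gbp3 (SE of its fold change 0.29, adjusted p = 0.00351). The lower calls also count Gbp2, Gbp5, Oas2, Oas1a, Ifi44 and Iigp1, which were at 0 in at least 2 HD-WNT5B libraries and are not read as falls. The lower calls of Stat2 (adjusted p = 0.0136), Parp14 (0.018), Ifit3 (0.0409) and Ifih1 (0.0488) each did not pass without at least 1 of the 6 libraries. The highest adjusted p was 0.0542 for Stat2, 0.0653 for Parp14, 0.123 for Ifit3 and 0.138 for Ifih1. Isg15, Irf7, Usp18, Dhx58 and Bst2 did not pass (adjusted p = 0.102 to 0.922). Without HD-WNT5B replicate 2, 6 members were higher, Ifit1, Usp18 and Bst2 among them, beside 5532 of all genes. This comparison shares its libraries with the other comparisons, so the values are given side by side.

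Per kilobase of exon, Ifi27 was the highest member in HD-WNT5B, at a mean value of 1269 per kilobase, followed by Ifi35 at 281, Bst2 at 244 and Stat2 at 232. In HD-Control the order began with Stat2 at 339, Ifi27 at 290.4 and Ifit3 at 248, and in WT-Control with Ifi27 at 636, Stat2 at 325 and Ifit3 at 279. At the low end were Oas2 and Gbp2 at 0 in HD-WNT5B, Ifi44 at 1.05 in HD-Control and Mx1 at 3.05 per kilobase in WT-Control.

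Other genes of the pathway were counted from lists of ligands, signalling parts, sensors and further induced genes. Of 16 ligand and receptor genes 6 passed the filter, and the 10 ligand genes did not. Ifnb1, the first type I interferon made by many cells, was at 0 in every library but 1 HD-Control library, at 0.737, which is 1 read. Ifng, interferon gamma, was at 0 in HD-WNT5B, at 0.797, 0 and 1.85 in HD-Control and at 0, 1.62 and 0 in WT-Control libraries, and each of the other ligands was at 0 to 0.797 in every library. Among receptors, in HD-Control against WT-Control 1 rose and 3 fell, with Il10rb, a subunit of the type III receptor, lower (log2 -1.13, adjusted p = 6.2e-11) and its partner Ifnlr1 higher (1.11, adjusted p = 4.1e-06). As shares of the 6 tested these are 16.7% higher and 50% lower, beside 43.5% and 40.2% of all genes. In HD-WNT5B against HD-Control 3 rose and 0 fell, 50% and 0% beside 33.9% and 37.9% of all genes. With 6 genes such shares are coarse. Ifnar1 had 3617, 3831 and 3154 in HD-WNT5B, against 2570.3, 2580.1 and 2592.5 in HD-Control libraries (log2 0.45, adjusted p = 0.0028), and the log2 fold changes were 0.86 for Ifngr1 (adjusted p = 7.5e-05) and 0.48 for Ifnar2 (adjusted p = 0.0243). These rises are at the deposited scale. At equal summed values the median over all genes in this comparison moved from -0.23 to -0.76. Values of the pathway lists at that scale are not given, so whether their rises hold there was not tested.

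Of 12 signalling and feedback genes, 6 rose and 6 fell in HD-Control against WT-Control, 50% each way beside 43.5% higher and 40.2% lower of all genes. In HD-WNT5B against HD-Control 0 were called higher and 7 lower, or 58.3% lower beside 37.9% of all genes. Socs3, the inhibitor that Stat3 induces, had 59, 62.6 and 148 in HD-WNT5B, 824, 820.0 and 848 in HD-Control and 67.6, 92.1 and 87.6 in WT-Control libraries. HD-Control stood alone at the high level, with a log2 fold change of 3.30 for Socs3 against WT-Control (adjusted p = 2.5e-17) and of -3.29 for HD-WNT5B against HD-Control (adjusted p = 0.000328). Stat3 rose in HD-Control, at 1.11 (adjusted p = 8.0e-20), and was lower in HD-WNT5B than in HD-Control, at -1.95 (adjusted p = 1.1e-06). Ptpn11, the phosphatase SHP2, rose in HD-Control by 0.57 (adjusted p = 2.9e-18) and was lower in HD-WNT5B than in HD-Control, at -1.74 (adjusted p = 3.0e-07). The receptor kinase Jak1 was also lower in HD-WNT5B, at -1.82 (adjusted p = 1.9e-05).

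Of 16 sensor and adaptor genes, 5 rose and 10 fell in HD-Control, or 62.5% lower beside 40.2% of all genes. In HD-WNT5B against HD-Control 4 were called higher and 6 lower. The lower share of 37.5% was at the 37.9% of all genes, and the higher share was 25% beside 33.9%. Tbk1, the kinase that activates Irf3, rose in HD-Control (0.74, adjusted p = 5.8e-15) and was lower in HD-WNT5B than in HD-Control (-1.70, adjusted p = 1.9e-05). Tlr7, the endosomal sensor of single-stranded RNA, rose in HD-Control by 1.66 (adjusted p = 5.0e-14), and Aim2, which senses cytosolic DNA, by 1.22 (adjusted p = 5.0e-14). Irf3, the factor that switches on Ifnb1, had 1801, 1034 and 2056 in HD-WNT5B, 467, 464 and 492 in HD-Control and 981, 927 and 894 in WT-Control libraries. The 3 groups did not overlap, with Irf3 at -0.97 in HD-Control against WT-Control (adjusted p = 4.6e-13) and at 1.72 in HD-WNT5B against HD-Control (adjusted p = 0.00123). Samhd1, which limits the nucleotide pool, was higher in HD-WNT5B than in HD-Control (1.33, adjusted p = 3.9e-05). Tlr9, a sensor of unmethylated DNA, was listed at 0 in the 3 HD-WNT5B libraries, against 47, 42.8 and 48 in HD-Control and 111, 142 and 109 in WT-Control libraries.

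Of 41 further induced genes tested, 24 fell and 8 rose in HD-Control, 58.5% lower beside 40.2% of all genes, with a median of -0.28. In HD-WNT5B against HD-Control 9 were called higher and 11 lower, the lower share at 26.8% and both shares under those of all genes, with a median of -0.48. Uba7, the enzyme that activates Isg15, fell in HD-Control (-1.73, adjusted p = 2.8e-12), as did Sp100 (-1.93, adjusted p = 5.6e-12), Irgm2 (-1.46, adjusted p = 1.1e-11) and Slfn5 (-0.80, adjusted p = 1.9e-10). Psmb10, a catalytic subunit of the immunoproteasome, had 14832, 14535 and 13435 in HD-WNT5B, 653, 619 and 637 in HD-Control and 539, 590.3 and 531 in WT-Control libraries. Its HD-WNT5B libraries stood far above all others, and the log2 fold change of Psmb10 against HD-Control was 4.48 (adjusted p = 5.1e-08). Slfn2 rose in HD-WNT5B over HD-Control by 2.91 (adjusted p = 4.2e-05) and Psmb8, also a subunit of the immunoproteasome, by 2.47 (adjusted p = 0.000138). Ifi207 was listed at 0 in the 3 HD-WNT5B libraries, against 54.2, 59 and 70.2 in HD-Control and 16.9, 16.2 and 10.9 in WT-Control libraries.

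**Figure D4:**
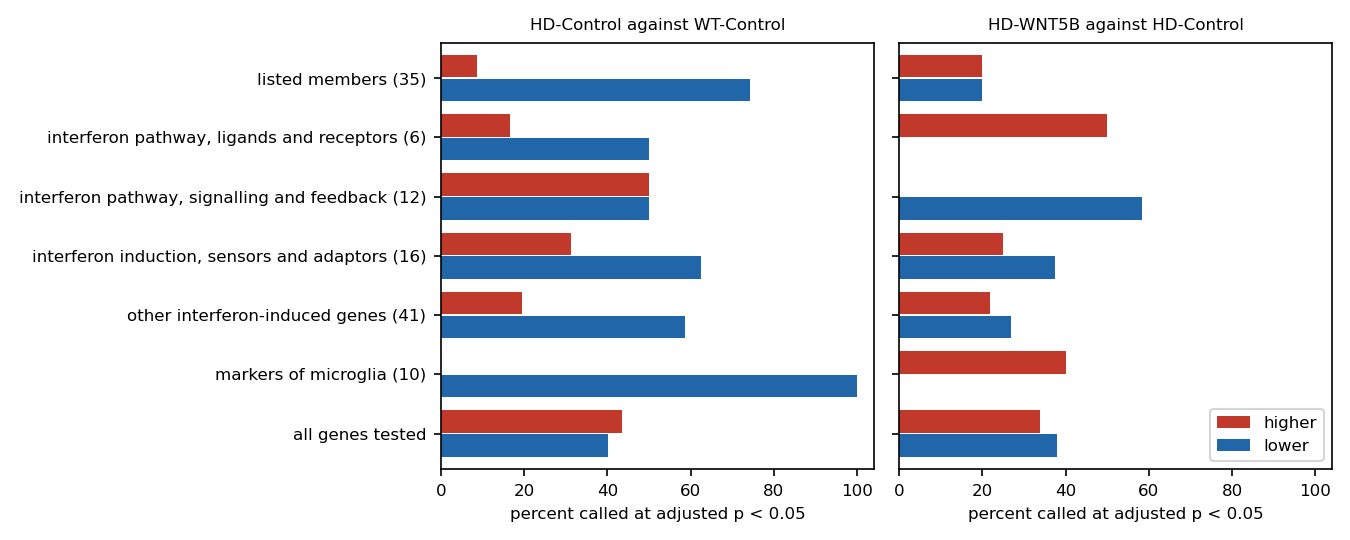
Percent of tested genes called higher and lower (adjusted p under 0.05) in HD-Control against WT-Control on the left and HD-WNT5B against HD-Control on the right, for the listed interferon-stimulated genes, 4 lists of pathway genes, microglia markers and all genes tested (numbers tested in brackets). On the left the lower bar exceeds the higher bar for the members, at 74.3% and 8.57%, and reaches 100% for the 10 microglia markers; on the right members stand at 20% in both directions, under all genes.

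Markers of other cells were also counted. In HD-Control against WT-Control 40.2% of all genes were called lower and 43.5% higher. For HD-WNT5B these shares were 37.9% and 33.9% against HD-Control and 38.6% and 34% against WT-Control. Marker counts near such shares are not read as a result about a cell type. All 10 listed microglia markers fell in HD-Control against WT-Control, with a median log2 fold change of -2.57, and their values summed to 30476 to 36922 in HD-WNT5B, 9318 to 9456 in HD-Control and 28522 to 28727 in WT-Control libraries. In HD-WNT5B 4 of the 10 (40%) rose over HD-Control, and 6 did not pass. Cx3cr1 alone made up most of the HD-WNT5B sum, with a mean of 19940 in HD-WNT5B, against 588 in HD-Control and 4765 in WT-Control libraries, and against WT-Control 7 of the 10 markers were lower and 3 higher in HD-WNT5B, with a median of -1.43. Endothelium and pericyte markers had 5 of 9 (55.6%) lower in HD-Control. In HD-WNT5B against HD-Control 4 of 9 were higher and 4 lower, 44.4% each way. Their sums were 43064 to 51077 in HD-WNT5B, 15841 to 16102 in HD-Control and 22261 to 22695 in WT-Control libraries. Most of the HD-WNT5B sum was Cldn5, with a mean of 28897 in HD-WNT5B, against 1679 in HD-Control and 1710 in WT-Control libraries, and against WT-Control 6 of the 9 were lower in HD-WNT5B. Astrocyte markers had 5 of 7 (71.4%) lower in HD-Control, and 4 of 7 (57.1%) lower in HD-WNT5B than in HD-Control. Oligodendrocyte markers had 6 of 6 lower in HD-Control, and in HD-WNT5B 4 (66.7%) were higher and 2 (33.3%) lower than in HD-Control. Choroid plexus markers summed to 12823 to 15654 in HD-WNT5B, 1724 to 1819 in HD-Control and 1752 to 1812 in WT-Control libraries, and 4 general neuron markers to 66159 to 76088 in HD-WNT5B, 176980 to 177177 in HD-Control and 187793 to 189207 in WT-Control libraries. Neutrophil markers S100a8 and S100a9 rose in HD-Control, at 243 to 342 against 1.41 to 4.85 in WT-Control libraries. Both passed the filter through the HD-WNT5B libraries alone. Ngp was at 186 to 190 in HD-Control and at 0 in WT-Control libraries. With HD-WNT5B replicate 1 at 0, Ngp passed the filter only with HD-Control libraries counted. Its test against WT-Control is therefore not independent of the filter and is not given. The 6 listed neutrophil markers summed to 1311 to 1493 in HD-WNT5B, 736 to 826 in HD-Control and 4.38 to 8.08 in WT-Control libraries. Border macrophage and monocyte markers summed to 211 to 318 in HD-WNT5B, 202 to 241 in HD-Control and 224 to 233 in WT-Control libraries, with Mrc1, Ly6c2, Ccr2 and Plac8 at 0 in all 3 HD-WNT5B libraries. Lymphocyte markers Cd3e, Cd8a, Ms4a1 and Nkg7 were at 0 in the 3 HD-WNT5B libraries, and Cd4 made up nearly the whole sum of that list in every group. The part of these cell types in the results on interferon-stimulated genes was not tested, and in bulk RNA a smaller number of such cells and a lower RNA content of each cannot be told apart.

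Some members share sequence with near copies, and their values are uncertain for that reason. Beside Ifit3, Ifit3b and Gbp6, 57.6% of the 50-base stretches of Oas1a occur in other genes of its family, 12.7% of those of Gbp7, 11.8% of those of Igtp, 11.6% of those of Rtp4 and 10.4% of those of Ifi35. The rest were under 8%. Over the 22 members whose exons share no base with another annotated gene, 15 fell and 3 rose in HD-Control against WT-Control. Of all genes 40.2% were called lower and 43.5% higher there. In HD-WNT5B against HD-Control 4 of the 22 fell and 4 rose, where 37.9% of all genes were called lower and 33.9% higher.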

How the data were processed

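RNA of 9 mouse brain libraries was measured, and samples were grouped by the genotype and virus in their titles. The values are a normalized signal per protein-coding gene, deposited by the authors as decimals, which look like read counts that were each divided by a factor of the library. Reads were aligned with STAR to mm10, per the submitters' processing notes. Neither the counter nor the annotation nor the normalizing program is given in the sources used here. The identifiers matched GENCODE M21 (GRCm38), which gave symbols, exons and positions, for 21853 of 21853 genes.

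The filter kept genes that reached 10 in 3 or more libraries. Log2(value + 3) was fitted with limma 3.58.1 (R 4.3.3), with a trend of variance on mean, on the 6 libraries of each comparison, because the HD-WNT5B group scatters more than the others, and p-values were Benjamini-Hochberg adjusted over 15411 genes. The added 3 shrinks fold changes of low genes. With 3 against 3, an exact permutation test cannot go below 0.1, so none was used. The procedure was tested on simulated data. A planned count model was not run, because the values are not whole numbers. The depth per library is given with the results, and counting error limits members with few reads.

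The 36 members, the pathway lists and the marker lists were chosen with earlier results of these data known. All members are named, with values per library, and other genes are the smallest p of their list. Promoter sequences are RefSeq windows of GRCm38.p6. Alternatives covered the scale between libraries, the constant, the filter, the libraries fitted, a replicate block and single libraries left out. Some results that need withheld items are not reported here.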

Additional observations from a re-analysis of the deposited data

How the results depend on the processing

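The count of members lower in HD-Control than in WT-Control was 26, and 1 spread over all 9 libraries left 10 lower and 1 higher, with 3183 and 3774 over all genes. A filter of 50 moved the median of the members to -0.59, and without members that share exon bases 15 of 22 were lower, beside 40.2% of all genes. For HD-WNT5B against HD-Control, equal totals gave 3 higher and 15 lower with a median of -1.14, beside 3755 higher and 7872 lower of all genes. A shared spread gave 11 lower, beside 6426 of all genes, and a weight per group 12 lower, beside 5937. Leaving out members that share exon bases gave 4 higher and 4 lower of 22. The main fit of this comparison called 5226 of all genes higher and 5848 lower. For HD-WNT5B against WT-Control a shared spread gave 5 higher, beside 5526 of all genes against 5238 in the main fit. With 1 library left out at a time, HD-WNT5B against HD-Control had 3 to 8 members higher and 7 to 11 lower. Of all genes 4719 to 5506 were then higher and 4936 to 6195 lower. HD-WNT5B against WT-Control had 3 to 6 members higher, beside 4781 to 5532 of all genes. Trim30a ran between -1.86 and 0.94, turning direction without HD-WNT5B replicate 2, the library that held 1 read. The causes of the other changes were not tested.

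With a replicate block, 26 members were lower and 3 higher in HD-Control against WT-Control, beside 6172 and 6691 of all genes. In HD-WNT5B against HD-Control 9 were lower and 5 higher, beside 5721 and 4949 of all genes. In HD-WNT5B against WT-Control 16 were lower and 3 higher, beside 5773 and 4978 of all genes. The deviations of same-numbered libraries had correlations of -0.0782 to 0.0215. No shared deviation was seen, but with so few libraries per group this does not settle whether the numbers pair the samples. The planned count model was not run. Depth limits members with few reads, and 9 members were at 0 in at least 1 HD-WNT5B library.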
